A study of Mus musculus with 238 samples.

Results

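The endoplasmic reticulum (ER) unfolded protein response was described here through 10 genes chosen by name: Hspa5, Hsp90b1, Dnajb9, Sdf2l1, Pdia4, Creld2, Herpud1, Xbp1, Atf4 and Ddit3. Of these 10 genes, 9 had an entry among the 21076 genes of the count table. Ddit3 was not analysed here. Each of the 9 measured genes passed the filter on low counts in every region and in liver, so none was lost to low expression.

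Bulk mRNA sequencing was done on C57BL/6JN mice aged 19 months, in 2 experiments. The first used females, either with free access to food (AL for ad libitum, 4 mice) or under dietary restriction (aDR, 5 mice), and 15 brain regions gave 131 libraries. The livers of the same 9 mice were sequenced to check that the restriction worked, with the restricted animals labelled DR there. This is called the diet experiment below. In the plasma experiment males received retro-orbital injections of young mouse plasma (YMP, 3 mice) or of phosphate-buffered saline (PBS, 4 mice), and the same 15 regions gave 98 libraries. All females were in one experiment and all males in the other, so sex and experiment cannot be told apart, and treated mice were compared only with the controls of their own experiment.

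The unfolded protein response is the programme by which a cell adjusts the folding capacity of the ER to the load of secreted and membrane proteins. Sensors in the ER membrane (IRE1, PERK and ATF6) are held inactive by the chaperone BiP and are released when unfolded proteins occupy it. IRE1 splices Xbp1 mRNA into the form that encodes an active transcription factor, ATF6 is cut to release another, and PERK slows translation while favouring that of Atf4, which acts upstream of Ddit3 (CHOP). The targets include ER chaperones and the machinery that returns misfolded proteins to the cytosol for degradation. Splicing of Xbp1 and translation of Atf4 are not visible in gene counts, so the values below are total mRNA only.

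Upstream sequence was examined because some of these genes are known targets through named promoter elements. RefSeq promoter windows (GRCm38.p6, 250 bases before to 50 after each start) were searched on both strands for the ER stress response element (ERSE, CCAAT then 9 bases then CCACG), ERSE-II (ATTGG, 1 base, CCACG), the core TGACGTG of the unfolded protein response element (UPRE) and the core TGATGNAA of the C/EBP-ATF composite element. CCAAT and CCACG are parts of ERSE, and each alone was common, in 37.4% and 32.8% of 32851 promoters. The full ERSE was found in 39 promoters (0.119%), 3 of them of the 10 listed genes (Hspa5, Hsp90b1 and Creld2). ERSE-II was found in 12 (0.0365%), among them Herpud1, so that 4 of the 10 listed genes held ERSE or ERSE-II against 0.155% of all promoters. The UPRE core stood in 2.01% of promoters and, of the listed genes, in Hspa5. The C/EBP-ATF core stood in 3.97% and, of the listed genes, in Herpud1. None of these 4 elements was in the windows of Xbp1, Atf4, Ddit3, Sdf2l1, Dnajb9 and Pdia4, which says only that those letters are not in that window. The stretches that hold the matches follow, 5′ to 3′ on the gene's strand, with the fixed letters of each match in capitals. Positions count back from the base before the start.
Hspa5, UPRE core, chr2:34771890-34771969, plus strand: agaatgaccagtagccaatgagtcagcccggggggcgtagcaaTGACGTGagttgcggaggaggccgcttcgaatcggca
Hspa5, ERSE, chr2:34772019-34772048, plus strand, -71 to -42: acttcaCCAATcggaggcctCCACGacggg
Hsp90b1, ERSE on each strand, chr10:86705510-86705674, minus strand, -230 to -66: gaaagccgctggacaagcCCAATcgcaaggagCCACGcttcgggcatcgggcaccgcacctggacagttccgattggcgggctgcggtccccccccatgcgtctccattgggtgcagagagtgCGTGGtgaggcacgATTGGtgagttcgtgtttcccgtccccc
Herpud1, C/EBP-ATF core then ERSE-II, chr8:94386279-94386428, plus strand, -150 to -1: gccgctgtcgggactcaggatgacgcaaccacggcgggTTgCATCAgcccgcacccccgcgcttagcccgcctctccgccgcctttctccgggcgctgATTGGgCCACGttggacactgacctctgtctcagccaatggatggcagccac
Creld2, ERSE on the opposite strand, chr15:88819446-88819595, plus strand, -200 to -51: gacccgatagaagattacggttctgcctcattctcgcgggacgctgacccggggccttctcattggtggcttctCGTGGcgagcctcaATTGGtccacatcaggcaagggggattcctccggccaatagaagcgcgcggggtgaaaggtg
In Herpud1 the C/EBP-ATF core lay at -112 to -105 on the opposite strand and ERSE-II at -52 to -42. Hsp90b1 held its ERSE matches at -212 to -194 and, on the opposite strand, at -107 to -89.

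In GENCODE vM21 (GRCm38) the measured genes lie at chr2:34771970-34777547 (Hspa5, plus strand), chr10:86690209-86705509 (Hsp90b1, minus), chr12:44205559-44210326 (Dnajb9, minus), chr16:17130138-17132383 (Sdf2l1, minus), chr6:47796141-47813430 (Pdia4, minus), chr15:88819646-88826683 (Creld2, plus), chr8:94386438-94395377 (Herpud1, plus), chr11:5520659-5525893 (Xbp1, plus) and chr15:80255184-80257541 (Atf4, plus). All are protein-coding genes, and counts are sums over a whole gene. The libraries were unstranded, so reads of Herpud1 and of its antisense neighbour Gm15890 cannot be told apart, nor those of Hsp90b1 and the pseudogene 1810014B01Rik on the other strand.

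The depth of the 238 libraries lay between 0.606 and 32.4 M counts (M as in counts-per-million) with a median of 8.44 M, and 6 libraries held under 2 M. Of 66 region markers checked against their labelled tissue, 44 were highest there and 54 ranked first or second of 16 tissues. The noradrenergic marker Slc6a2 was near 0 in pons, and some single libraries lacked a defining marker: the lowest hypothalamus library had 0.209 CPM of Oxt against a mean of 321, and the choroid plexus libraries ranged from 127 to 14557 CPM of Ttr, the transthyretin that plexus epithelium secretes. These marker values, and those of hormone and choroid plexus genes below, are counts-per-million (CPM) of the plain library total. For the measured genes of the response, CPM means counts-per-million after scaling by trimmed mean of M-values (TMM), so the scales differ. The pons sample of aDR mouse 67 differed from the other libraries of its region. Its summed CPM of 6 pituitary hormone genes was 186857, against 3.51 to 1868 in the other 14 pons libraries, with Prl at 140935, Gh at 30256 and Cga at 15275 CPM.

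That library also held the highest value of every measured gene of the response among the diet pons libraries. Hspa5, which encodes BiP, stood at 1330 CPM there and at 299 to 426 in the other 8. Hsp90b1 (GRP94, the ER member of the HSP90 family) stood at 890 against 271 to 337, and Dnajb9 (ERdj4, a BiP co-chaperone) at 426 against 101 to 120. The largest ratio was seen for Sdf2l1, an ER protein of BiP complexes, at 153 against 15.6 to 24.1. Creld2, an ER-resident protein with EGF-like repeats, stood at 101 against 16.6 to 26.4 CPM. The disulfide isomerase Pdia4 was at 180 against 41.5 to 57.6 CPM, and Herpud1 at 234 against 101 to 137. The factors stood at 396 against 119 to 211 (Xbp1) and 86.9 against 44.4 to 54.6 (Atf4). With this library in pons, all 9 genes were higher in aDR, Sdf2l1 by 1.082, Creld2 by 0.83, Dnajb9 by 0.72 and Hspa5 by 0.51 on the log2 scale. Without it Hspa5 was at -0.11, Hsp90b1 at -0.17, Sdf2l1 at -0.19, Herpud1 at +0.17 and Dnajb9 at +0.098 (edgeR adjusted p = 0.9998 for each). The part of pituitary tissue in these values was not tested. Levels over the diet brain are therefore given with and without that library.

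The first comparison was among regions in control mice: which brain regions held more or less of each transcript. Every one of the 9 genes differed among regions in AL mice and in PBS mice (9 of 9 in each, edgeR quasi-likelihood test, adjusted p under 0.05). Nearly all genes did so, 98% in AL and 96% in PBS mice, so this is no property of the response. Means below are CPM on a scale common to all brain libraries, ± SD, with 3 or 4 mice a region. Values listed for single libraries elsewhere were scaled within their own tissue and experiment, so they are not on the scale of these means. In such bulk samples, fewer cells of a type and less RNA per cell cannot be told apart.

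Among the chaperones, Hspa5 was highest in hypothalamus of AL mice, at 594 ± 58.3 CPM. In PBS mice the means of SVZ (611 ± 190 CPM), hypothalamus (610 ± 103) and corpus callosum (596 ± 180) were within their spread of each other. It was lowest in olfactory bulb, at 269 in AL and 290 in PBS mice, a ratio of 2.21 and 2.09. Hsp90b1 in AL mice was also highest in hypothalamus (423 ± 23.2) and was lowest in anterior hippocampus (277), a ratio of 1.52. In PBS mice SVZ (417 ± 67.0), corpus callosum (415 ± 83.9) and hypothalamus (414 ± 23.7) were level, and anterior hippocampus was again lowest (300.4). Dnajb9 varied least, from 117 in hypothalamus to 88.1 in choroid plexus in AL mice, a ratio of 1.32. Sdf2l1 was highest in medulla in AL mice (25.5 ± 2.55) and in corpus callosum in PBS mice (34.7 ± 10.7). Pdia4 had its highest mean in SVZ in both experiments, at 68.2 ± 6.79 and 89.0 ± 19.6 CPM. Corpus callosum was within the spread of these, at 64.0 ± 19.5 and 87.1 ± 21.5. Creld2 ran from 31.4 in caudate putamen to 17.9 in thalamus in AL mice. In PBS mice its highest mean was in SVZ, at 36.5 ± 9.58 CPM. Summed choroid plexus marker genes stood at 3011 to 20680 CPM in SVZ and 5206 to 19498 in corpus callosum of PBS mice. In choroid plexus itself they stood at 8397 to 10850. In AL mice the ranges were 66.3 to 3546, 49.5 to 11891 and 699 to 9433 CPM, in the same order of tissues. The part of plexus tissue in these region orders was not tested.

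Herpud1, an ER membrane protein of the degradation machinery, had another order, with 116 ± 3.78 CPM in thalamus and 67.7 in olfactory bulb of AL mice. In PBS mice its highest mean was in pons (118 ± 14.2) and its lowest again in olfactory bulb (62.4). Xbp1 was highest in visual cortex in both experiments (218 ± 6.82 and 213 ± 4.34) and lowest in medulla of AL mice (131) and olfactory bulb of PBS mice (137). Atf4 was at 85.8 ± 3.54 in olfactory bulb and 30.9 ± 3.71 in caudate putamen of AL mice, a ratio of 2.79, and in PBS mice at 80.7 in cerebellum and 32.9 in caudate putamen, a ratio of 2.47.

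**Figure D1:**
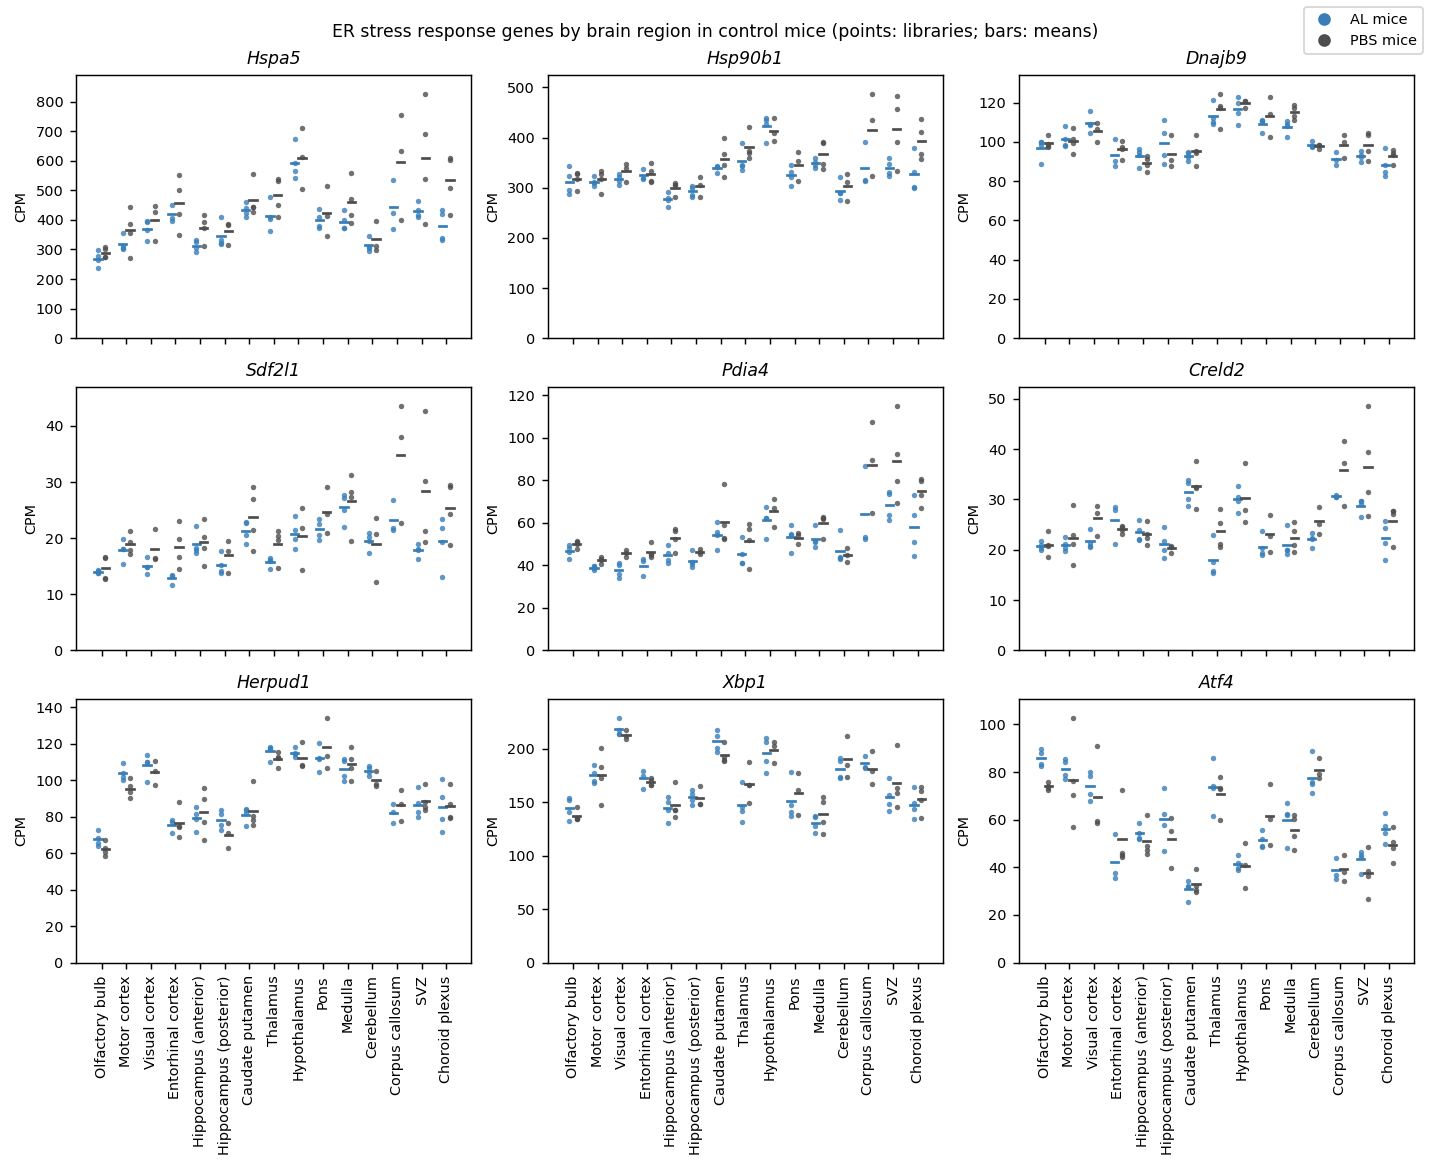
Level of the 9 measured genes in 15 brain regions of control mice, in CPM on a linear axis from 0, with AL mice in blue and PBS mice in grey, a point for each library and a bar for each mean. Hspa5 is highest in hypothalamus of AL mice (level with SVZ in PBS mice) and lowest in olfactory bulb, Atf4 is lowest in caudate putamen, and Sdf2l1, Pdia4 and Creld2 spread widely in corpus callosum and SVZ of PBS mice.

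Most neighbours in these orders were not separated beyond their spread. Of the 14 neighbouring pairs of regions in an order, between 1 (Creld2, Dnajb9, Pdia4) and 4 (Atf4) differed by more than the root mean square of their SDs in AL mice. In PBS mice this was true of 0 to 3 pairs. The visual cortex led the order of Xbp1 beyond this spread in both experiments, and olfactory bulb stood below its neighbour for Hspa5 and Herpud1 in both. As a description over 15 region means, the order in AL mice correlated with that in PBS mice at Pearson r between 0.744 (Sdf2l1) and 0.961 (Herpud1). The points share region, protocol and strain.

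The region profiles of the genes fell into unlike shapes. Over 15 regions Hspa5 and Hsp90b1 correlated at r = 0.86 in AL and 0.92 in PBS mice, and Herpud1 and Dnajb9 at 0.81 and 0.76. Atf4 correlated negatively with Creld2 (-0.85 and -0.72) and with Hspa5 (-0.72 and -0.73), and weakly positively with Dnajb9 (0.30 and 0.19) and Herpud1 (0.23 and 0.14). The median of the 36 pairs was 0.304 in AL and 0.283 in PBS mice.

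The next comparison was aDR against AL within each region. Of the 135 tests of a gene in a brain region, 0 reached adjusted p under 0.05 by edgeR's quasi-likelihood test, where 0.0525% of all gene tests did. DESeq2 called 3, and 0.257% of all gene tests. At unadjusted p under 0.05 there were 24 of 135 (17.8%), against 6.24% of all gene tests. The groups did not overlap in 16 of the 135 tests, 10 of them higher and 6 lower in aDR, against 3.07% of all gene tests. These 135 tests share 9 mice and genes that vary together, so they are not separate observations.

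The smallest p-values belonged to Hsp90b1 and Herpud1. Hsp90b1 in motor cortex stood at 302, 298, 310 and 289 CPM in AL mice and at 256, 261, 268, 266 and 271 in aDR mice. Every aDR library was thus below every AL library, with a log2 difference of -0.18 (SE 0.045, edgeR adjusted p = 0.124). In olfactory bulb Hsp90b1 stood at 302, 340, 356 and 311 CPM in AL mice and at 269, 274, 267, 262 and 297 in aDR mice. The groups again did not overlap, and the difference was -0.26 (SE 0.060, edgeR adjusted p = 0.128). DESeq2 called both, with adjusted p of 0.0262 and 0.0160.

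Herpud1 lay the other way. In cerebellum it stood at 113, 114, 112 and 109 CPM in AL mice and at 131, 120, 137, 126 and 129 in aDR mice. No aDR library fell within the AL range, and the difference was +0.20 (SE 0.050, edgeR adjusted p = 0.150, DESeq2 adjusted p = 0.0402). Herpud1 in thalamus stood at 114, 114, 108 and 115 CPM in AL mice and at 135, 133, 121, 144 and 135 in aDR mice, a difference of +0.25 (edgeR adjusted p = 0.925). The other regions with an unadjusted p under 0.05 for Herpud1 were caudate putamen (+0.27), corpus callosum (+0.26) and hypothalamus (+0.21). All 5 were higher in aDR with no overlap of the groups.

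**Figure D2:**
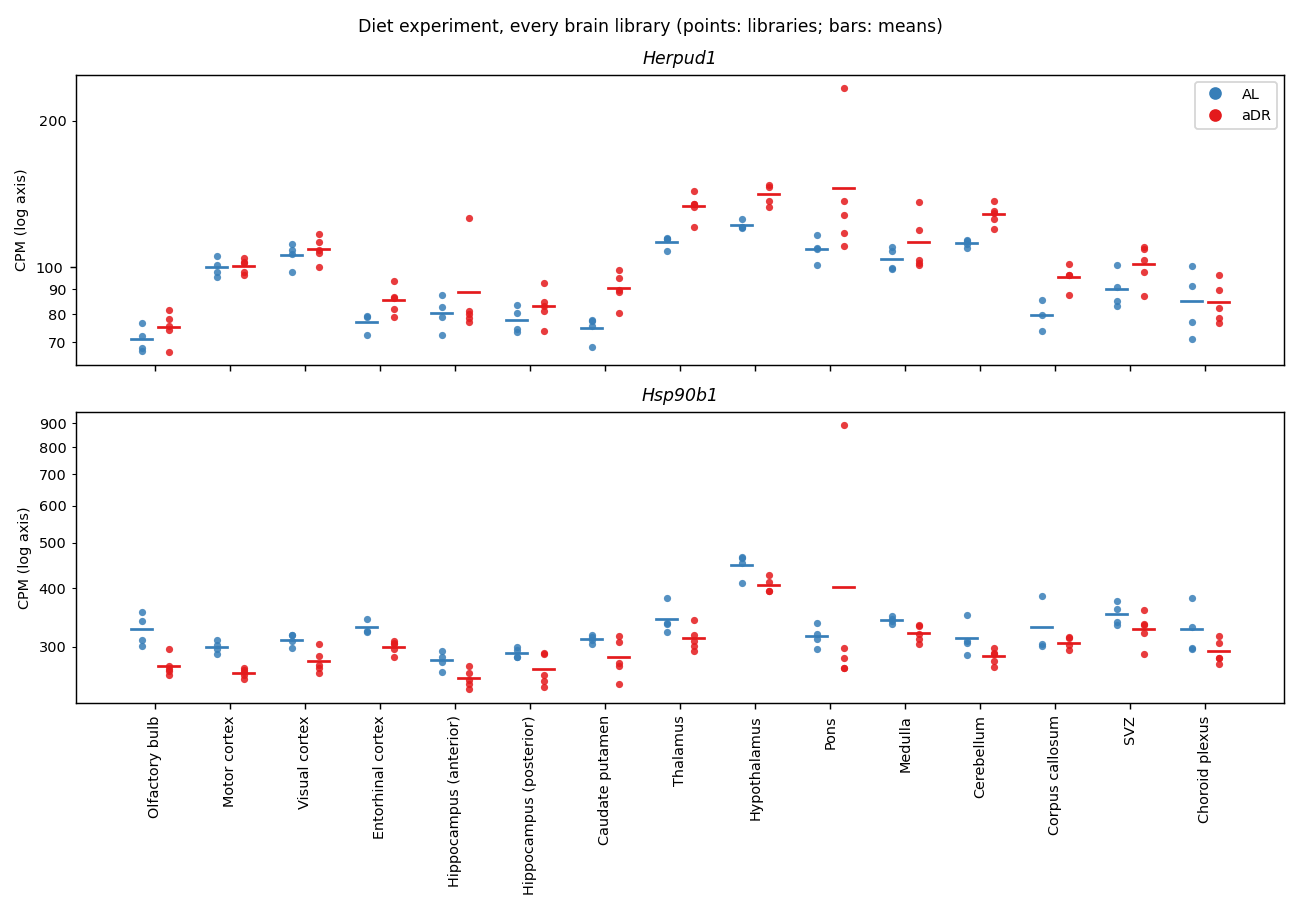
Herpud1 and Hsp90b1 in every brain library of the diet experiment, in CPM on a log axis, with AL in blue and aDR in red, a point for each library and a bar for each mean. Herpud1 means are higher in aDR in 14 of 15 regions and Hsp90b1 means lower in 14 of 15, and the high aDR point in pons is the library of mouse 67.

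Dnajb9 was higher in aDR in all 15 regions, with an unadjusted p under 0.05 in cerebellum, corpus callosum, medulla and SVZ. A direction shared by all 15 regions was found for 2.53% of all genes. In cerebellum Dnajb9 stood at 104, 106, 106 and 103 CPM in AL mice and at 114, 117, 112, 110 and 115 in aDR mice, without overlap (+0.12, edgeR adjusted p = 0.288). Several genes were low in olfactory bulb and in motor cortex. In olfactory bulb Hspa5, Hsp90b1, Xbp1, Sdf2l1 and Pdia4 were lower in aDR at an unadjusted p under 0.05, 5 of 9 genes, where 13.7% of all genes had such a p. In motor cortex these were Hspa5, Hsp90b1, Xbp1 and Creld2, 4 of 9, against 10.5%. The log2 differences ran from -0.27 (Sdf2l1) to -0.16 (Hspa5) in olfactory bulb and from -0.26 (Creld2) to -0.13 (Xbp1) in motor cortex. Outside these regions an unadjusted p under 0.05 with a lower value in aDR was found for Pdia4 in thalamus (-0.41), Sdf2l1 in hypothalamus (-0.40), Atf4 in visual cortex (-0.22) and medulla (-0.20), and Hsp90b1 in visual cortex (-0.16) and entorhinal cortex (-0.14), with edgeR adjusted p from 0.307 to 0.9997.

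**Figure D3:**
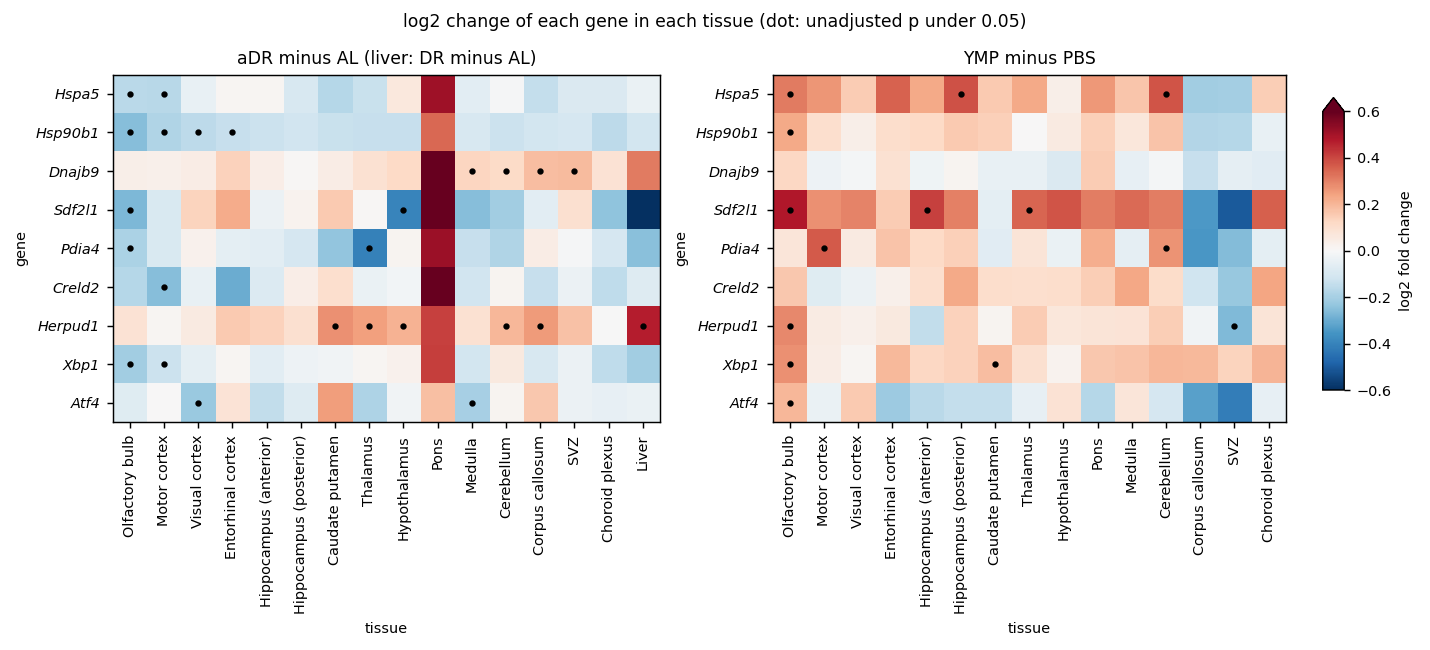
Log2 difference of the 9 measured genes in each tissue, aDR minus AL on the left with DR minus AL in liver, and YMP minus PBS on the right, red for higher and blue for lower in treated mice, with colours held at 0.6 and dots for an unadjusted p under 0.05. Herpud1 and Dnajb9 are red and Hsp90b1 is blue along most of the diet panel, pons is red for all 9 genes through the library of mouse 67, and the plasma panel is mostly red except for Atf4 and Dnajb9 (each lower in 11 of 15 regions) and for corpus callosum and SVZ.

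To use the mouse as the replicate, each mouse was given a single level per gene over its brain regions, after removal of the region means, and the mouse levels were compared with limma. Herpud1 stood at 6.49, 6.56, 6.52 and 6.53 log2 CPM in the AL mice and at 6.67, 6.66, 6.62, 6.64 and 6.78 in the aDR mice. The groups did not overlap, and the difference was +0.15 (SE 0.036, 95% interval 0.066 to 0.231, a 1.11-fold difference, limma adjusted p = 0.101). Its region means were higher in aDR in 14 of 15 regions. A direction shared by at least 14 of 15 regions was found for 7.46% of all genes.

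Hsp90b1 stood at 8.32, 8.36, 8.42 and 8.31 log2 CPM in the AL mice and at 8.19, 8.21, 8.18, 8.18 and 8.37 in the aDR mice. The aDR value inside the AL range was that of mouse 67. The difference was -0.13 (SE 0.045, 95% interval -0.228 to -0.025, limma adjusted p = 0.216), lower in 14 of 15 regions. Dnajb9 stood at 6.62, 6.68, 6.65 and 6.62 in the AL mice and at 6.74, 6.77, 6.62, 6.72 and 6.92 in the aDR mice. Here aDR mouse 64 was level with the lowest AL mouse, and the difference was +0.11 (95% interval -0.014 to 0.228, limma adjusted p = 0.368).

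The other 6 genes overlapped between the diet groups, and each was lower on average in aDR. Their log2 differences were -0.091 for Pdia4, -0.061 for Hspa5, -0.058 for Sdf2l1, -0.054 for Creld2, -0.044 for Xbp1 and -0.028 for Atf4, with limma adjusted p from 0.360 to 0.815. The intervals were -0.197 to 0.075 for Hspa5, -0.190 to 0.102 for Xbp1 and -0.120 to 0.063 for Atf4. Mouse 67 was the highest aDR mouse for Hspa5 (8.68), Sdf2l1 (4.44), Creld2 (4.76), Xbp1 (7.49) and Pdia4 (5.62).

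In all, 0 of 9 genes were called over the diet brain by limma, against 0.922% of all genes, and 2 of 9 had an unadjusted p under 0.05 (Herpud1 and Hsp90b1), against 16.1%. The median of the 9 log2 differences was -0.054 and that of all genes -0.0062. Without the pons library of mouse 67, Hsp90b1 stood at -0.15 (limma adjusted p = 0.067), Herpud1 at +0.14 (0.0615) and Pdia4 at -0.12 (0.196). The other values without it were -0.084 for Hspa5, -0.095 for Sdf2l1, -0.082 for Creld2, -0.061 for Xbp1, -0.038 for Atf4 and +0.084 for Dnajb9, with limma adjusted p from 0.308 to 0.675. In a fit over all libraries with the mouse as replicate block, Herpud1 (adjusted p = 0.000113) and Hsp90b1 (adjusted p = 0.00823) were called, 2 of 9, where 9.44% of all genes were. That fit takes a single correlation for all genes. The effect of restriction was not found to differ among regions for any of the 9 genes (0 of 9 called and 0 with an unadjusted p under 0.05, edgeR F test, against 0.0128% of all genes called), and pons, where mouse 67 stood apart, was part of that test.

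**Figure D4:**
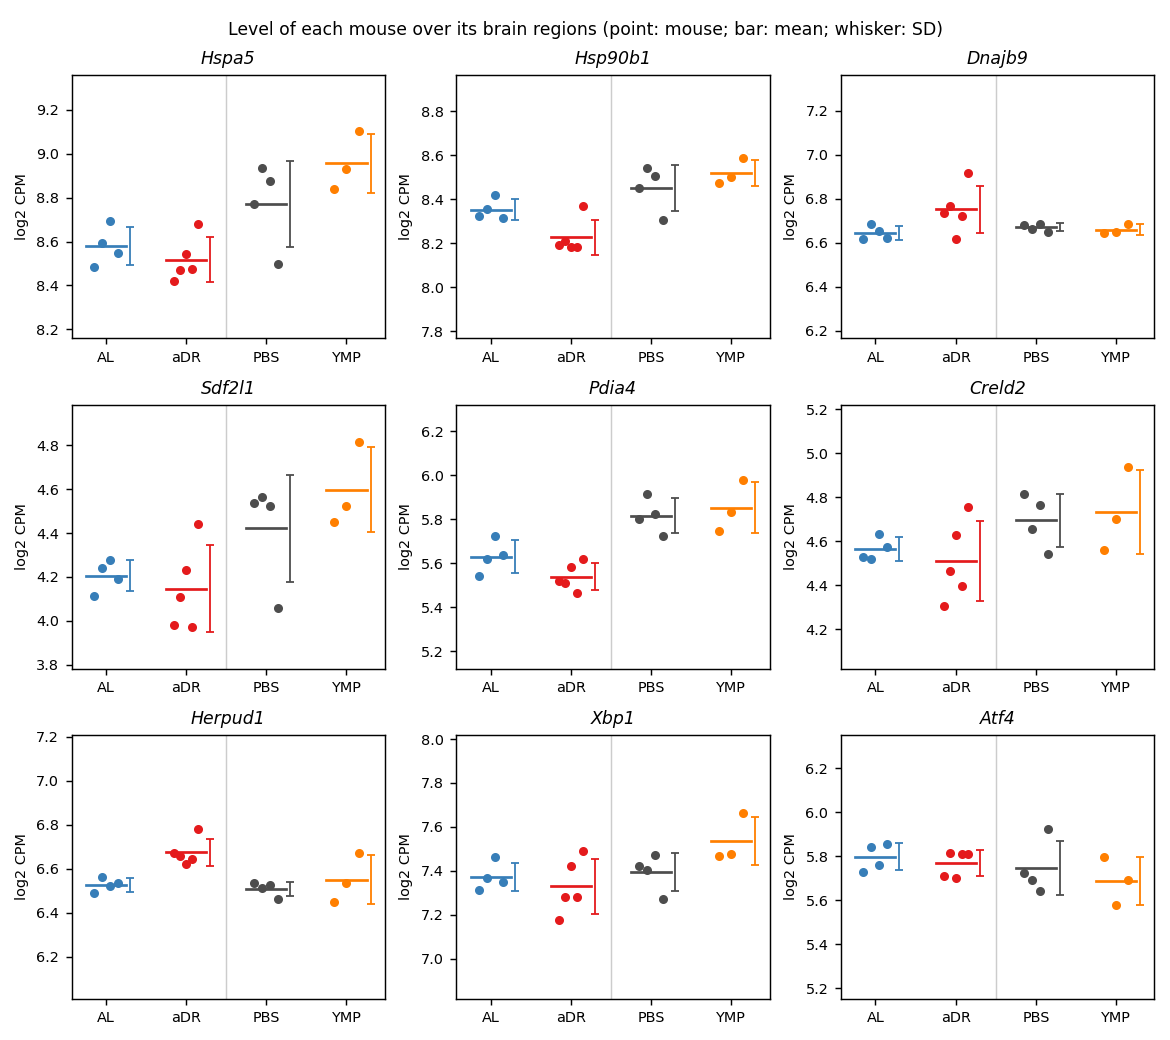
Level of each mouse over its brain regions for the 9 measured genes, in log2 CPM, a point for each mouse with the mean as a bar and the SD as a whisker, for AL, aDR, PBS and YMP mice. The aDR points of Herpud1 (6.62 to 6.78) lie above the AL points (6.49 to 6.56), the aDR points of Hsp90b1 lie below the AL points except mouse 67 (8.37), and PBS mouse 84 is the lowest of its group for Hspa5 and Sdf2l1.

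Some endothelial markers differed between the diet groups over the same libraries. Of 7 endothelial genes, Cldn5 (-0.48, limma adjusted p = 0.0402) and Flt1 (-0.26, adjusted p = 0.0382) fell in aDR. Pecam1 was at -0.26 (adjusted p = 0.109) and Itm2a at -0.12, whereas Slco1a4 (+0.13, unadjusted p = 0.041), Ly6c1 (+0.020) and Abcb1a (+0.0039) were on the higher side. In addition, 5 of 6 blood genes were higher in aDR (median +0.84, none called). Their part in the values above was not tested.

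The wider pathway was described over lists of its genes, again as mouse levels over the diet brain. Of all genes 0.922% were called by limma there, and 16.1% had an unadjusted p under 0.05. Of 11 genes listed for the sensors, their regulators and eIF2alpha phosphorylation 0 were called by limma, and 3 had an unadjusted p under 0.05, all lower in aDR. That list includes Eif2s1 (eIF2alpha) and the kinases Eif2ak1, Eif2ak2 and Eif2ak4, which are not ER sensors. The smallest p belonged to Mbtps2, the site-2 protease that cuts ATF6 (-0.094, adjusted p = 0.220), and Atf6b, a relative of ATF6 (-0.090, adjusted p = 0.225). Of 20 further ER chaperones and folding enzymes 0 were called and 5 had an unadjusted p under 0.05, again all lower. Calr, the calcium-binding lectin chaperone calreticulin, was at -0.18 (adjusted p = 0.0806), and Pdia6, a disulfide isomerase, at -0.15 (adjusted p = 0.204). The median of that list was 0.0028, and 11 of its 20 genes were higher in aDR.

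Of 24 genes of ER-associated degradation and translocation 0 were called, and 4 had an unadjusted p under 0.05, against 16.1% of all genes. Of these 4, 3 were higher in aDR. Selenos, which recruits the ATPase p97 to the ER membrane, was at +0.14 (limma adjusted p = 0.0989), and the lectin Os9, which hands misfolded glycoproteins on for degradation, at +0.097 (adjusted p = 0.155). Of 22 tested targets of ATF4 and CHOP, 1 was called: Cebpb, a C/EBP transcription factor, rose by 0.27 in aDR (SE 0.048, limma adjusted p = 0.0393). A further 9 had an unadjusted p under 0.05, 8 of the 10 being higher, where 16.1% of all genes had such a p. Over the whole list 12 of 22 were higher and the median was +0.018. A list of 15 heat shock genes was cytosolic except for Hspd1 and Hspe1, which are mitochondrial. Among these 15 genes Chordc1, an HSP90 co-chaperone, fell by 0.32 in aDR (SE 0.051, limma adjusted p = 0.0311), and Hsph1 was at -0.21 (adjusted p = 0.070).

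In liver, 0 of the 9 genes were called in DR against AL mice by edgeR (0.22% of all genes were) and 0 by DESeq2. At an unadjusted p under 0.05 there was 1 of 9, Herpud1, where 9.09% of all genes had such a p. Herpud1 stood at 434, 269, 259 and 389 CPM in AL livers and at 490, 422, 378, 509 and 540 in DR livers. The ranges overlapped, since AL mouse 63 lay above DR mice 62 and 64, and the difference was +0.47 (SE 0.20, 1.38-fold, edgeR adjusted p = 0.485). Liver thus had Herpud1 on the same side as the brain, and the difference between the liver and brain effects was +0.35 (95% interval -0.089 to 0.780, limma adjusted p = 0.738).

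Sdf2l1 in liver stood at 24.1, 15.4, 30.6 and 26.3 CPM in AL mice and at 16.9, 6.34, 9.39, 12.8 and 33.6 in DR mice. The highest value of all was in DR mouse 67, and without that mouse the difference went from -0.60 to -1.11 on the log2 scale (lowest edgeR adjusted p over single left-out mice 0.190). Xbp1 in liver stood at 238, 130, 230 and 234 CPM in AL and at 207, 133, 129, 203 and 228 in DR mice, with ranges that nearly coincided (-0.21, edgeR adjusted p = 0.903). Hspa5 stood at 397, 244, 370 and 440 CPM in AL and at 400, 184, 168, 398 and 618 in DR mice. The DR range enclosed the AL range.

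The remaining genes of liver differed by +0.31 (Dnajb9), -0.25 (Pdia4), -0.11 (Hsp90b1), -0.078 (Creld2) and -0.040 (Atf4), with edgeR adjusted p of 0.922 or more. Mouse 67 had the highest DR value in liver for Hspa5 (618), Hsp90b1 (703), Dnajb9 (147), Sdf2l1 (33.6), Pdia4 (170), Creld2 (38.9), Herpud1 (540) and Xbp1 (228). AL mouse 66 and DR mice 62 and 64 were low together for Hspa5, Xbp1, Dnajb9 and Pdia4. These 3 liver libraries also had the highest mitochondrial share of counts (4.88%, 8.04% and 7.07%, against 2.96% to 4.35% in the other 6) and the highest share in their 10 most abundant genes (21.2% to 24.0%, against 17.6% to 19.9%). The part of RNA or library quality in these values was not tested. None of the 9 effects was called as different between liver and brain (0 of 9, none with an unadjusted p under 0.05, limma, against 0.0881% of all genes called).

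**Figure D5:**
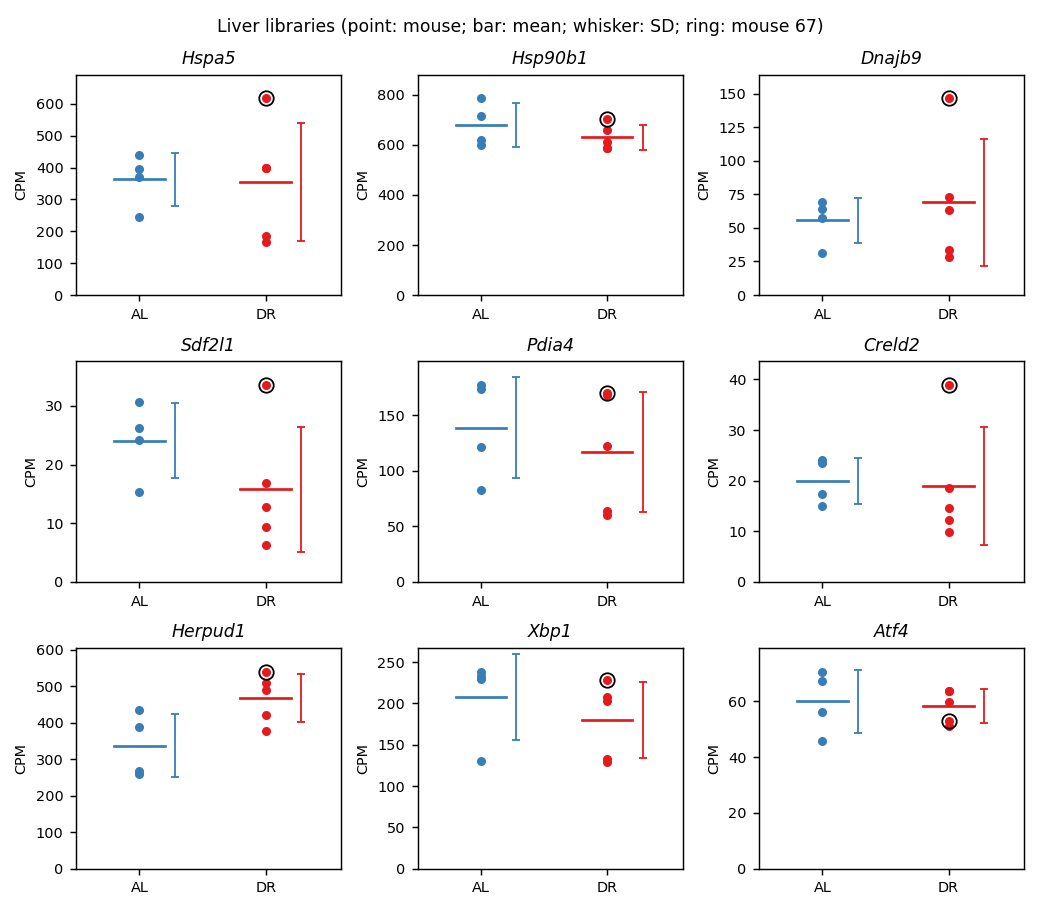
Level of the 9 measured genes in liver, in CPM on a linear axis from 0, a point for each mouse with the mean as a bar and the SD as a whisker, for 4 AL and 5 DR mice, with mouse 67 ringed. Herpud1 is higher on average in DR (468 against 338 CPM) with overlapping points, and mouse 67 is the highest DR mouse for 8 of the 9 genes.

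The wider lists in liver also held no call (edgeR), where 0.22% of all genes were called. In the list of sensors and eIF2alpha phosphorylation, Eif2ak2 (the double-stranded RNA kinase PKR, not an ER sensor) was at -0.42 (adjusted p = 0.398). Ppp1r15b, a phosphatase subunit that acts on eIF2alpha, was at +0.28 (0.670). Of the chaperones Calr was at -0.34 (0.696) and Txndc5 at +0.28 (0.878). Of the degradation and translocation genes Sec61b was at -0.37 (0.596) and Spcs2 at -0.32 (0.686). Among ATF4 and CHOP targets 4 of 17 had an unadjusted p under 0.05, against 9.09% of all genes. Atf5, a factor induced along the same branch, was at -1.01 (adjusted p = 0.154) and the stress cytokine gene Gdf15 at -0.99 (0.395). Cebpb was at +0.48 (0.487). The smallest p among heat shock genes belonged to Hspa4l (-0.37, 0.498) and Hspb8 (-0.51, 0.682).

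Levels in liver were compared with those in brain within the AL mice, with all libraries on a common scale. With TMM scaling 8 of the 9 genes were higher in liver (edgeR quasi-likelihood test, adjusted p under 0.05), where 86.3% of all genes differed and 38.8% were higher in liver. The ratio of liver to the mean of the brain regions was 7.20 for Herpud1, 5.53 for Pdia4, 4.05 for Hsp90b1, 2.58 for Sdf2l1, 2.46 for Xbp1, 2.09 for Atf4, 1.86 for Hspa5 and 1.66 for Creld2. Dnajb9 was not called (1.09, adjusted p = 0.117), and with DESeq2's size factors in edgeR it was (1.16, adjusted p = 0.00801). This comparison depends on the scaling, because liver RNA has another composition. The median log2 difference of all genes was -0.28 with TMM and -1.22 with plain library totals, a setting added after the data were seen. On plain totals Herpud1 was 3.72 times, Pdia4 2.84 times, Hsp90b1 2.12 times, Sdf2l1 1.34 times and Xbp1 1.27 times higher in liver and all 5 were called. Hspa5 (0.959) and Atf4 (1.09) were not, and Creld2 (0.859) and Dnajb9 (0.564) were called as lower in liver. On the log2 scale and relative to the median of all genes, Herpud1 stood at +3.13 with TMM and +3.11 on plain totals, and Pdia4 at +2.75 and +2.72. In the same log2 units Hsp90b1 stood at +2.30 and +2.30, Hspa5 at +1.17 and +1.16 and Dnajb9 at +0.41 and +0.39, all above the median gene. Another scaling shifts all genes by nearly the same amount, so these relative values stay alike by construction. They do not test whether the comparison holds under another scaling. The brain libraries of a mouse are not independent, and the fit treats them as such.

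In the plasma experiment the question was whether young plasma moved these genes in the old brain. Within regions, 0 of 135 tests were called by edgeR (0.0127% of all gene tests) and 0 by DESeq2. At unadjusted p under 0.05 there were 14 of 135 (10.4%), against 6.11% of all gene tests. The groups did not overlap in 18 tests, 15 higher and 3 lower in YMP, against 9.21% of all gene tests.

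Olfactory bulb held 6 of those 14, all higher in YMP, where 8.84% of all genes had an unadjusted p under 0.05. Hspa5 in olfactory bulb stood at 292, 320, 322 and 287 CPM in PBS mice and at 326, 350 and 430 in YMP mice. The ranges did not meet, and the difference was +0.31 (SE 0.079, edgeR adjusted p = 0.397). Xbp1 in olfactory bulb stood at 143, 142, 153 and 141 CPM in PBS and at 172, 152 and 196 in YMP mice, with YMP mouse 77 inside the PBS range (+0.28, edgeR adjusted p = 0.415). Hsp90b1 stood at 348, 335, 344 and 308 CPM in PBS and at 387, 357 and 421 in YMP mice without overlap (+0.23, edgeR adjusted p = 0.425). The library of YMP mouse 73 in this region was the shallowest of the series, with 0.606 M counts, of which 197 were of Hspa5. Without YMP mouse 77, edgeR called Hspa5 (+0.39, adjusted p = 0.0202), Hsp90b1 (+0.31, 0.0280) and Xbp1 (+0.40, 0.00395) there, among 194 of 14291 genes. In that fit the shallow library was 1 of the 2 YMP libraries. Without YMP mouse 81, the differences fell to +0.16 for Hspa5 and +0.11 for Xbp1, and neither was called.

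In motor cortex Pdia4 stood at 40.97, 41.3, 42.2 and 39.1 CPM in PBS mice and at 50.0, 48.9 and 58.5 in YMP mice. The groups were apart, with a difference of +0.37 (SE 0.088, edgeR adjusted p = 0.9998). Hspa5 was higher in YMP at an unadjusted p under 0.05 in cerebellum (+0.38) and posterior hippocampus (+0.38), and Sdf2l1 in anterior hippocampus (+0.41) and thalamus (+0.35).

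As mouse levels over the brain, Hspa5 stood at 8.77, 8.94, 8.88 and 8.50 log2 CPM in PBS mice and at 8.84, 8.93 and 9.10 in YMP mice. Only YMP mouse 81 lay above all PBS mice, and the difference was +0.19 (95% interval -0.084 to 0.456, limma adjusted p = 0.710), with 13 of 15 regions higher. Without PBS mouse 84, the lowest, it was +0.092. Xbp1 stood at 7.42, 7.40, 7.47 and 7.27 in PBS and at 7.47, 7.48 and 7.66 in YMP mice, a difference of +0.14 (95% interval -0.022 to 0.308, limma adjusted p = 0.644). Xbp1 was higher in YMP in all 15 regions. Of all genes 1.57% kept a direction in all 15, and 4.86% in at least 14 of 15. Sdf2l1 stood at 4.54, 4.56, 4.52 and 4.06 in PBS and at 4.45, 4.52 and 4.82 in YMP mice, and its difference of +0.18 (limma adjusted p = 0.787) was +0.049 without PBS mouse 84.

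The other log2 differences in the plasma brain were +0.069 (Hsp90b1), +0.042 (Herpud1), +0.038 (Creld2), +0.037 (Pdia4), -0.0099 (Dnajb9) and -0.058 (Atf4). Without PBS mouse 84 Hsp90b1 was at +0.017. The groups overlapped for each of the 9 genes, and for 10.1% of all genes they did not. The interval for Herpud1 was -0.097 to 0.182 and that for Dnajb9 -0.097 to 0.077. By limma 0 of 9 genes were called and 0 had an unadjusted p under 0.05, where 0% of all genes were called and 8.09% had such a p. In the fit over all libraries with the mouse as replicate block, Xbp1 was called (adjusted p = 0.0112), 1 of 9, against 3.08% of all genes. No gene's effect was called as different among regions (0 of 9, none with an unadjusted p under 0.05, edgeR F test, against 0.786% of all genes called).

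Choroid plexus markers were lower in YMP in the plasma libraries. All 12 listed genes were on the lower side over the brain (median -1.29, 11 with an unadjusted p under 0.05, none called). Their summed level in SVZ was 3011 to 20680 CPM in PBS and 32.6 to 59.0 in YMP mice, and in corpus callosum 5206 to 19498 against 9.94 to 23.6. In SVZ 8 and in corpus callosum 8 of the 9 genes were lower in YMP, and Xbp1 was higher in both. Corpus callosum had only 2 YMP libraries, of mice 77 and 81. Genes of a library vary together, and the share of all genes lower in YMP in these regions is not given, so these counts show direction only. The part of plexus tissue in the values of SVZ and corpus callosum was not tested. In SVZ Hspa5 stood at 870, 711, 554 and 400 CPM in PBS and at 495, 533 and 624.98 in YMP mice, with overlap (-0.20). Herpud1 in SVZ stood at 89.95, 101, 85.8 and 90.97 CPM in PBS and at 70.8, 73.3 and 85.3 in YMP mice, just without overlap (-0.26, unadjusted p = 0.031, edgeR adjusted p = 0.317). With choroid plexus, corpus callosum and SVZ left out, Hspa5 over the brain was +0.24 (unadjusted p = 0.046, limma adjusted p = 0.958) and Sdf2l1 +0.24, and in the diet experiment Herpud1 was +0.15 (limma adjusted p = 0.158). Leaving out these regions together was not planned and was added after the data were seen.

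The wider lists held no call over the plasma brain (limma). Of all genes 0% were called there, and 8.09% had an unadjusted p under 0.05. Of the 11 genes listed for sensors and eIF2alpha phosphorylation 1 had an unadjusted p under 0.05, Eif2ak2 at -0.22 (adjusted p = 0.538), followed by Eif2s1 at +0.068 (0.763). None of 20 chaperones and none of 24 degradation genes did. The smallest p-values there belonged to Dnajc10 (-0.058, adjusted p = 0.739) and Pdia6 (+0.12, 0.754), and to Spcs3 (+0.096, 0.625) and Erlec1 (-0.11, 0.644). Of 22 ATF4 and CHOP targets 1 did, Cdkn1a at +0.41 (0.574), followed by Ddit4 at +0.38 (0.644). Of the 15 heat shock genes, with the mitochondrial Hspd1 and Hspe1 among them, 13 were higher in YMP. Of the 15, 3 had an unadjusted p under 0.05, led by Hsph1 at +0.24 (0.482) and Dnajb1 at +0.29 (0.580). The median of that list was +0.11, and that of all genes -0.0037.

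Within region and treatment group, the genes varied together from library to library. Over the 131 diet brain libraries the deviations of the 36 gene pairs from their group means had a median r of 0.592, and all were above 0. Without the pons library of mouse 67 the median was 0.354, and 8 rather than 24 pairs were above 0.5. Over the 98 plasma libraries it was 0.485, with 17 pairs above 0.5. Hspa5 and Hsp90b1 formed the closest pair, at 0.90 in the diet libraries, 0.78 without that library and 0.88 in the plasma libraries. Atf4 stood outside, with r to the mean of the others of 0.296, 0.016 and -0.43 in the same order. These values describe libraries that share mice, dissections and depth.

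Among 12020 other genes, the 5 whose deviations were most like the mean of the measured genes in the diet libraries were Pdia3 (r = 0.880), Manf (0.876), P4hb (0.870), Tmed3 (0.867) and Srpr (0.866). Without the pons library of mouse 67 these were 0.663, 0.695, 0.674, 0.681 and 0.636, and Manf then ranked first. In the plasma libraries Manf ranked first as well (0.761), Tmed3 was at 0.633, Pdia3 at 0.572, Srpr at 0.475 and P4hb at 0.387. Manf encodes a secreted ER protein, Pdia3 and P4hb disulfide isomerases, Tmed3 a cargo protein of early secretory vesicles and Srpr the receptor of the signal recognition particle.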

How the data were processed

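Gene counts of 238 libraries were used as the authors deposited them, with no normalization. Per the submitters' processing notes, reads were trimmed with Trim Galore 0.3.7 and aligned to GRCm38 with STAR 2.5.3a, and DESeq2 was among the tools; the counting tool and gene annotation are not given in the sources used here. Per the labels' protocols, RNA was extracted with RNeasy kits and libraries were made by Smart-Seq2 and Nextera XT, unstranded. The members and the gene lists were chosen with earlier results of these data known.

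Genes were kept with filterByExpr (minimum count 10, minimum total 15). Regions and liver were tested with edgeR 4.0.16 (TMM, quasi-likelihood, Benjamini-Hochberg over all genes, threshold 0.05) in R 4.3.3. Mouse levels over the brain came from log2 CPM (prior count 2) with region and mouse terms, and were tested with limma 3.58.1. P-values measure the spread between mice; for tests with libraries of several regions, between libraries. Alternatives were DESeq2 1.42.0, its size factors, no filter, a prior count of 0.5, libraries of at least 2 M counts, single mice, regions or the pons library left out, and voom with or without the mouse as block. Same-numbered libraries come from the same animal, so the number pairs them; the mean correlation of their deviations was 0.040 (other mice -0.0049) in the diet libraries and 0.072 (other mice -0.012) in the plasma libraries. No replicate pair agreed within sampling noise (smallest chi-square per degree of freedom 1.29 over 357 pairs). The tests were tested on simulated data.

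Library values were given for members called, and otherwise for the 3 member-by-region tests of smallest p in each experiment and the 3 members of smallest p in liver. Of each list the called genes were named, or else the 2 of smallest p. Regions differing beyond their spread had a gap in mean log2 CPM over the root mean square of their SDs. The most alike genes had a mean of at least 5 CPM on plain library totals. Further regions described for a gene were picked after the values were seen.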

Additional observations from a re-analysis of the deposited data

Results flagged for a closer look

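In groups of 4 or 5 mice, a sample was singled out where its gap to the nearest of the others took an unusual share of the group's range by Dixon's 95% criterion. The groups were levels over the brain and values in chosen tissues: liver, diet pons, diet cerebellum, motor cortex, olfactory bulb and plasma SVZ. Other regions were not examined, and the choice took in the pons library of mouse 67. Of 144 groups examined 16 held such a sample. For independent groups chance gives about 1 in 20. Genes of a library vary together and were counted as separate groups, so 16 of 144 cannot be set against that rate. Of the 16, 9 belonged to mouse 67 and 8 of these to its pons library.

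In that pons library the values were 1330 CPM for Hspa5 (next 412), 890 for Hsp90b1 (298), 426 for Dnajb9 (120), 153 for Sdf2l1 (24.1), 180 for Pdia4 (56.7), 101 for Creld2 (26.4), 234 for Herpud1 (137) and 86.9 for Atf4 (53.2). The ninth value was the level of Hsp90b1 over the brain of aDR mouse 67, 8.37 log2 CPM against 8.21 in the nearest aDR mouse.

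Among the other mice, the level of Sdf2l1 over the brain was 4.06 log2 CPM in PBS mouse 84, against 4.52 in the nearest PBS mouse. Xbp1 in liver was at 130 CPM in AL mouse 66 (nearest 230). Dnajb9 in AL mouse 63 was low in pons (101 CPM, nearest 107) and in olfactory bulb (93.2, nearest 104). Xbp1 in olfactory bulb of aDR mouse 61 was at 106 CPM (nearest 134). In cerebellum Atf4 was at 93.2 CPM in AL mouse 69 (nearest 79.9) and Pdia4 at 61.4 in AL mouse 68 (nearest 46.8).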

How the results depend on the processing

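Counts of called members kept within 1.5 times their value in 118 of 124 alternatives. The exceptions were within diet regions 3 with DESeq2 (0 with edgeR), within plasma regions 3 without YMP mouse 77 (range 0 to 3 over single left-out mice), and the brain-wide counts with the mouse as replicate block (2 in the diet and 1 in the plasma experiment) or with all libraries and no block (3 and 4). No other member's call was changed by the block. Leaving out single mice moved the region count in PBS mice to between 8 and 9 and the liver-to-brain level count to between 8 and 9, and left the other counts as they were. Among single members, 405 of 426 alternatives kept direction and call, 15 passed the threshold, and 6 turned direction, all in the plasma brain and none called. These were Atf4 (0.0013) and Creld2 (-0.015) without PBS mouse 84, Creld2 (-0.065), Herpud1 (-0.019) and Pdia4 (-0.026) without YMP mouse 81, and Dnajb9 (0.0023) without YMP mouse 73; the cause was not tested. At the other end of the range over single left-out mice stood -0.11 for Atf4, 0.13 for Creld2, 0.10 for Herpud1 and 0.094 for Pdia4 without YMP mouse 73, and -0.025 for Dnajb9 without YMP mouse 81. Over single left-out mice the adjusted p (limma) of Herpud1 in the diet brain ran from 0.082 to 0.227 and that of Hsp90b1 from 0.063 to 0.418. Depth limits the low genes most: Sdf2l1 in olfactory bulb of YMP mouse 73 rested on 5 counts.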
